A study of Rattus norvegicus with 16 samples.

Results

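The livers of 4 male Sprague Dawley rats fasted until phase 2 of fasting (P2) were compared with the livers of 4 fed male rats of the same strain. The arrays were chosen by their titles, P2 1 to 4 and fed 1 to 4, which makes 8 of the 16 arrays of the series. The comparison runs over all 13206 genes that had a row of their own in the deposited table, and no gene was chosen by its value. The other arrays come from 4 rats that had reached phase 3 (P3) and from 4 rats that were re-fed for 2 days after phase 3. They enter the estimate of the spread, and the P3 arrays are set against P2 where named. The sources used here give neither the ages of the rats nor how long they fasted or when they were sampled. Pieces of whole frozen liver were used, with 1 animal per array and no technical replicate. RNA depleted of ribosomal RNA was read on Affymetrix Rat Exon 1.0 ST arrays, which carry probes in most exons. The values are log2 signals per transcript cluster, the array's unit for a gene, so that a difference of 1 is 2-fold.

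A long fast passes through stages. After liver glycogen is spent, phase 2 is the stage in which the body lives mainly on fatty acids and ketone bodies and holds back its protein. Phase 3 follows when fat runs low and protein breakdown climbs. In the liver, insulin is known to act through the transcription factor SREBP-1c and glucose through ChREBP on the genes of fatty acid synthesis. SREBP-2 runs the genes of cholesterol synthesis, and the fatty acid receptor PPARα runs many genes of fatty acid oxidation. FOXO1, which insulin keeps out of the nucleus, is known to drive genes such as Igfbp1. The fed against P2 comparison addresses how the liver's gene expression differs between these fuel states.

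Of the 13206 genes, 923 were higher at P2 and 1100 were lower by limma at an adjusted p below 0.05. Such genes are named called below, and "rose" and "fell" are used for them alone. The shares of all genes, 6.99% higher and 8.33% lower, are the background for every gene group. By size, 214 genes rose and 356 fell by at least 2-fold, and 9 rose and 31 fell by at least 4-fold. The median change over all genes was 0.04 log2 units, and the median standard error was 0.16. Among the 2023 called genes, 1802 (89.1%) had 4 fed and 4 P2 values that did not overlap, against 22.9% of all genes. Changes are given as log2 differences, P2 minus fed, ± their standard error from the fit (4 fed and 4 P2 arrays). Each rat gave a single array, and precision is limited by how few arrays there are.

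Arrays correlated at 0.972 to 0.989 within the fed or the P2 group and at 0.940 to 0.980 between them. The values of fed 2 and P2 4 had the smallest standard deviations of the 8 arrays (2.119 and 2.138, against 2.212 to 2.347 in the others). When P2 4 was left out, 49.9% of the called genes were still called, and this share was 53.8% without fed 4. Hepatocyte markers were bright on every array. The 9 measured markers, with albumin (Alb) among them, had mean log2 signals of 12.52 to 12.74 in fed and 12.55 to 12.80 in P2 livers, and none of the 9 was called. Alb read 13.33, 13.15, 13.37 and 13.37 in fed livers and 13.49, 13.50, 13.52 and 13.53 at P2 (0.20 ± 0.08, adjusted p = 0.11). In bulk tissue, fewer cells of a type and less RNA per cell cannot be told apart.

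Binding proteins of insulin-like growth factors were among the largest rises at P2. Igfbp1 encodes a secreted binding protein whose gene insulin represses. Its log2 signal was 7.89, 7.12, 7.66 and 7.43 in the 4 fed livers and 10.88, 10.58, 10.83 and 10.33 in the 4 P2 livers. Every P2 value lay far above every fed value, and the rise of 3.13 ± 0.22 (8.78-fold, adjusted p = 1.5e-06) was the largest of the comparison. Igfbp2, a second binding protein of the family, read 6.79, 6.75, 6.60 and 6.19 in fed livers and 8.67, 10.09, 8.56 and 9.43 at P2. It rose by 2.60 ± 0.27 (adjusted p = 6.9e-05). Igf1, the growth factor that these proteins bind, lay between 11.67 and 12.17 in fed livers and read 11.37, 11.33, 11.41 and 10.90 at P2. All 4 P2 values were below all fed values, but the change of -0.69 ± 0.42 did not pass the test (adjusted p = 0.29). Stat5a (-1.22 ± 0.16, adjusted p = 0.0003) and Stat5b (-1.07 ± 0.26, adjusted p = 0.016), which carry the growth hormone signal to the nucleus, fell. The Stat5b call was lost without P2 4 (adjusted p = 0.059). Igf2r, which clears insulin-like growth factor 2, fell by 0.96 on the log2 scale. Over the 23 measured genes of the growth hormone and IGF axis, 2 rose, 3 fell and the median change was -0.27.

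The start of the Igfbp1 gene is shown because it carries a well-known insulin response sequence, and because the gene rose most. The windows were searched for 6 short motifs on both strands over the 250 bases before the start of 27457 genes of the RefSeq annotation (build GRCr8). They were the sterol regulatory element TCACNCCAC, the NF-Y box CCAAT, the E box CACGTG, the core of the insulin response sequence CAAAACA, the forkhead core TGTTTAC and the run TGGCAAA. In this order, 1.00%, 34.2%, 5.77%, 5.47%, 3.25% and 3.25% of all windows held them. None of the motifs overlaps another in the windows printed. Capitals mark the matches in the Igfbp1 window (chr14:86261027-86261276, plus strand), which are 2 NF-Y boxes and, at 121 bases before the start, the insulin response core.
Igfbp1: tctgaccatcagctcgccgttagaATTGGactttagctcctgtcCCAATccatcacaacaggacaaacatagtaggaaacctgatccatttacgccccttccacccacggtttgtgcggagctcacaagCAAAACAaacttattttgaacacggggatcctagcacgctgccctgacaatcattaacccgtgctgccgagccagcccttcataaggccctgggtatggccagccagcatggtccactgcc
A match is a run of letters and not a measured binding site.

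Genes that turn sugar into fatty acids were much lower at P2. Of 22 measured genes of the lipogenesis list, 17 fell and none rose, against 8.33% of all genes that fell, and the median change was -1.92. Pklr, the liver pyruvate kinase at the end of glycolysis, was at 11.08 or more in all fed livers and read 8.26, 7.86, 8.54 and 7.19 at P2 (-3.53 ± 0.33, adjusted p = 2.8e-05). Acly, which splits citrate into the acetyl-CoA used for synthesis, went from 10.63, 11.62, 10.59 and 10.34 to 7.98, 7.60, 7.88 and 6.86 (-3.21 ± 0.27, adjusted p = 1e-05). For both genes, the highest P2 liver lay below the lowest fed liver by a wide margin. Acaca, the carboxylase that commits acetyl-CoA to fatty acids, read 9.17, 9.94, 9.29 and 9.14 in fed livers and 6.77, 5.90, 6.49 and 5.49 at P2 (-3.22 ± 0.27, adjusted p = 1e-05). Me1, the malic enzyme that supplies reducing power, fell by 1.98 ± 0.38 (adjusted p = 0.0045).

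Enzymes that desaturate and lengthen the chains were far lower. Scd, the desaturase that makes oleate, read 12.33, 12.31, 12.36 and 11.65 in fed livers and 4.19, 4.78, 4.80 and 4.93 at P2. It stood among the brightest rows of the fed liver and close to the median of each array (4.368 to 4.459) at P2, a change of -7.49 ± 0.42 (adjusted p = 2.1e-07). Elovl6, which lengthens palmitate, read 7.54, 8.70, 7.72 and 7.32 in fed livers and 3.39, 3.89, 3.48 and 3.26 at P2. It fell by 4.31 ± 0.28 (adjusted p = 5.8e-07), and its P2 values lay below the median of every array. No detection calls were used here, so the P2 signals of Scd and Elovl6 are not shown to be above background, and both falls may be larger than measured. Fads1, the delta-5 desaturase, went from 10.95, 11.31, 10.85 and 10.87 to 7.73, 7.61, 8.12 and 6.68 (-3.46 ± 0.34, adjusted p = 4.5e-05). Fads2, the delta-6 desaturase, fell by 2.26 ± 0.37 (adjusted p = 0.0017).

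Regulators of the pathway were lower as well. Srebf1, which encodes SREBP-1, fell by 2.13 ± 0.21 (adjusted p = 4.5e-05), from 9.89 to 10.77 in fed livers to 7.78 to 8.60 at P2. Thrsp, a nuclear protein of lipogenic tissues that thyroid hormone and carbohydrate induce, fell by 1.64 ± 0.14 (adjusted p = 9.2e-06). The 5 list members that were not called were Pnpla3, Slc25a1, Lpin1, Dgat2 and Elovl2, which apart from Lpin1 are named after their values were seen. Pnpla3, a lipid droplet enzyme, read 8.48 in fed 2 and 4.69 to 5.99 in the other fed livers, against 3.95 to 4.33 at P2 (-1.86 ± 0.59, adjusted p = 0.051). Dgat2, which makes triglyceride, differed by -0.37 ± 0.22, and the citrate carrier Slc25a1 by -0.41 ± 0.15. Of 17 falls on the list, 15 kept their call when any single array was left out. The 250 bases before the Scd start (chr1:253231732-253231981, minus strand) held none of the 6 motifs, which says only that these letters are not in this window. They are printed because Scd fell most.
Scd: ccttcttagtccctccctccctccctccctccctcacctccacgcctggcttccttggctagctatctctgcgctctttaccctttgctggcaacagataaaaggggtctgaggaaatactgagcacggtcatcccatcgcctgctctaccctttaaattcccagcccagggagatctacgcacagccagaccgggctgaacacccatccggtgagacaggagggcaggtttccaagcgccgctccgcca

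**Figure D1:**
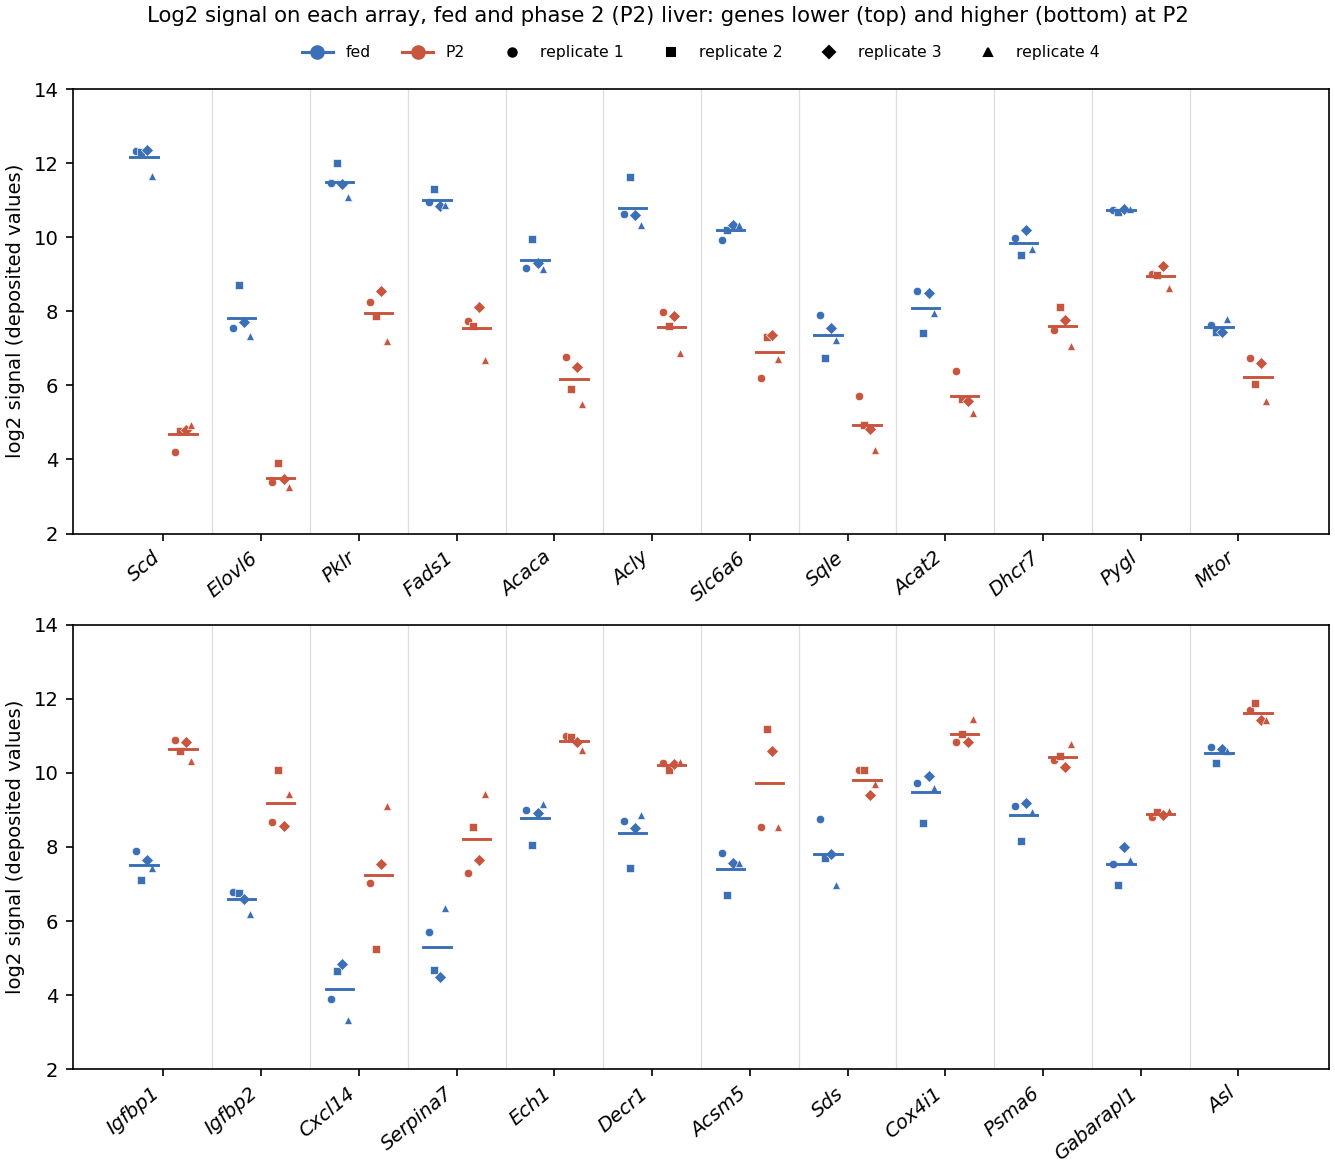
Log2 signal (vertical axis) of 24 named genes on each fed (blue) and P2 (red) array. Each symbol is 1 animal, shaped by its replicate number, and a bar marks the mean of 4. Scd drops from above 11.6 in all fed livers to below 5 in all P2 livers, and the 4 Igfbp1 values at P2 all exceed 10.3 while the fed values stay at or below 7.89.

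Cholesterol synthesis was lower along most of its length. All 15 measured enzymes had changes below 0, from -2.42 to -0.36, and 12 of the 15 fell, with a median of -1.34. Acat2, the thiolase at the entry of the pathway, read 8.54, 7.40, 8.50 and 7.95 in fed livers and 6.39, 5.62, 5.57 and 5.26 at P2 (-2.39 ± 0.28, adjusted p = 0.00016). Sqle, the squalene epoxidase and a rate-setting step, read 7.91, 6.74, 7.56 and 7.23 in fed livers and 5.72, 4.94, 4.83 and 4.25 at P2 (-2.42 ± 0.27, adjusted p = 0.0001). For both, fed 2 was the lowest fed liver and still lay above every P2 liver. Lss, which closes the sterol rings, fell by 1.89 ± 0.21, and Msmo1 and Tm7sf2, which trim and reduce them, fell by 1.95 ± 0.28 and 1.78 ± 0.22. Dhcr7, the last enzyme of the pathway, went from 9.99, 9.51, 10.19 and 9.68 to 7.49, 8.11, 7.76 and 7.06 (-2.24 ± 0.25, adjusted p = 0.00011). The 3 enzymes that were not called, named after their values were seen, were Pmvk (-0.41 ± 0.21), Ebp (-0.36 ± 0.18) and Hsd17b7 (-0.85 ± 0.28). The counts cover 15 of the 20 genes on the list, and the others were not analysed here.

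Sterol sensing and transport genes were lower in fewer cases. Of 17 measured, 1 rose and 6 fell, with a median of -0.30. Srebf2, which encodes SREBP-2, read 8.25, 7.96, 8.05 and 8.36 in fed livers and 7.54, 7.15, 7.25 and 6.33 at P2 (-1.09 ± 0.23, adjusted p = 0.0083). Npc1, which moves cholesterol out of lysosomes, fell by 1.64 ± 0.28, Lrp1, an endocytic receptor for lipoprotein remnants, by 1.20 ± 0.20, and Abca1, which loads cholesterol onto apolipoprotein A-I, by 1.05 ± 0.21. Insig1 (-0.40 ± 0.21) and Insig2 (-0.54 ± 0.20), which hold SREBP proteins back in the endoplasmic reticulum, were not called. Among 12 measured sterol synthesis genes with a promoter in the table, 9 held a CCAAT box in the 250 bases before their start, against 34.2% of all windows, and none held TCACNCCAC. The 9 included Hsd17b7 and Ebp, which were not called. The windows of Acat2 and Dhcr7, which fell more than Msmo1, held none of the 6 motifs. The Msmo1 window (chr16:29746863-29747112, plus strand) is printed because it held 3 CCAAT boxes, marked in capitals.
Msmo1: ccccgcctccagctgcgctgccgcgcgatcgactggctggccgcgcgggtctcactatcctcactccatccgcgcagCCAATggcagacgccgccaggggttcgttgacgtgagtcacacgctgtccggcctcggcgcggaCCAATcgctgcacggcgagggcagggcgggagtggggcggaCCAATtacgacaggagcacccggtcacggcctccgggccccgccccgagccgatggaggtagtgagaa

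Glycogen genes were lower at both the storing and the releasing step. Of 10 measured, 4 fell and none rose (median -0.58). Pygl, the liver glycogen phosphorylase, was within 10.69 to 10.76 in all fed livers and within 8.62 to 9.23 at P2 (-1.77 ± 0.24, adjusted p = 0.00052). Ppp1r3b, which brings a phosphatase to glycogen, fell by 1.58 ± 0.31 (adjusted p = 0.0051), and Phkb, a subunit of the kinase that switches phosphorylase on, by 1.26 ± 0.27 (adjusted p = 0.0084). Gys2, liver glycogen synthase, fell by 0.84 ± 0.21, a call that was lost without fed 4 (adjusted p = 0.06).

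Glucose production genes did not move together. Of 25 measured gluconeogenesis genes, 5 rose and 3 fell, with a median of 0.02. Pck1, the enzyme that makes phosphoenolpyruvate and is often called rate-setting, read 11.95, 10.80, 11.64 and 11.66 in fed livers and 11.89, 11.91, 11.86 and 11.10 at P2 (0.18 ± 0.35, adjusted p = 0.77). G6pc1, which frees glucose, read 11.44, 11.76, 11.79 and 11.60 in fed livers and 11.26, 10.31, 11.64 and 10.90 at P2 (-0.62 ± 0.29, adjusted p = 0.16). The fed and P2 values of both genes overlapped. Pc, pyruvate carboxylase, lay at 10.64 to 10.85 in fed livers and at 9.47, 9.17, 9.31 and 8.49 at P2, a change of -1.64 ± 0.28 (adjusted p = 0.0022). Gk, glycerol kinase, through which glycerol from fat enters glucose production, fell by 1.26 ± 0.21 (adjusted p = 0.0019). Sds, serine dehydratase, rose by 2.01 ± 0.54 (adjusted p = 0.025), from 8.76, 7.70, 7.82 and 6.96 to 10.09, 10.07, 9.41 and 9.71, and Gpt, an alanine aminotransferase, rose by 1.48 ± 0.31 (adjusted p = 0.0067). Ppargc1a, a coactivator of fasting genes, read 4.94, 4.42, 4.34 and 5.08 in fed livers and 5.90, 6.17, 5.39 and 5.36 at P2 (1.01 ± 0.29, adjusted p = 0.032). Leaving out P2 2 raised the adjusted p of Ppargc1a to 0.093 and ended 5 calls of this list, and leaving out fed 4 raised that of Sds to 0.084.

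In glycolysis, 3 of 17 genes fell and none rose. Besides Pklr they were the glucose transporter Slc2a2 (-0.84 ± 0.23) and Gpi (-0.82 ± 0.19). Slc2a2 stood at 11.22 to 11.27 in fed livers and at 11.18, 10.44, 10.43 and 9.56 at P2, so that P2 1 was close to the fed level, and its call was lost without fed 4 (adjusted p = 0.064). Around pyruvate dehydrogenase and the citric acid cycle, 4 of 29 genes rose and 6 fell. Pdp2, a phosphatase that activates pyruvate dehydrogenase, fell by 1.72 ± 0.38 (adjusted p = 0.01), Ogdh fell by 0.90 ± 0.28, and Idh2, the mitochondrial NADP-dependent isocitrate dehydrogenase, rose by 0.89 ± 0.27. The Ogdh call was lost without P2 4 (adjusted p = 0.13) and so was the Idh2 call (adjusted p = 0.1). Pdk4, the kinase that inactivates pyruvate dehydrogenase, read 8.68, 8.75, 8.84 and 8.93 in fed livers and 8.10, 8.10, 8.42 and 7.73 at P2. These ranges were apart, with a change of -0.71 ± 0.27 that did not pass the test (adjusted p = 0.088).

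Fatty acid oxidation genes that rose included those that handle unsaturated and medium-chain fatty acids. In mitochondria, 7 of 22 measured genes rose and none fell (median 0.44), against 6.99% of all genes that rose, and all 7 kept their call when any single array was left out. Ech1, a dienoyl-CoA isomerase of peroxisomes and mitochondria, read 8.99, 8.04, 8.92 and 9.17 in fed livers and 11.00, 10.98, 10.84 and 10.63 at P2 (2.08 ± 0.23, adjusted p = 0.0001). Decr1, the mitochondrial dienoyl-CoA reductase, went from 8.70, 7.44, 8.52 and 8.85 to 10.26, 10.08, 10.23 and 10.30 (1.84 ± 0.27, adjusted p = 0.00092). Eci1, which moves double bonds so that oxidation can proceed, went from 8.01, 7.07, 8.07 and 8.24 to 9.37, 9.49, 9.70 and 9.76 (1.73 ± 0.29, adjusted p = 0.0017). In all 3 genes the P2 livers lay close together, and fed 2 was the lowest fed liver. Acsm5, a medium-chain acyl-CoA synthetase, read 7.83, 6.71, 7.56 and 7.57 in fed livers and 8.55, 11.19, 10.60 and 8.53 at P2. Its rise of 2.30 ± 0.55 (adjusted p = 0.015) was carried by P2 2 and P2 3. Acsm3 (1.42 ± 0.28), the electron carrier subunit Etfa (0.84 ± 0.17) and the short-chain dehydrogenase Acads (0.71 ± 0.16) also rose. In peroxisomes, 4 of 24 genes rose and 1 fell. Crat, which makes acylcarnitines, rose by 1.16 ± 0.21, and Acox3, an oxidase of branched chains, fell by 1.38 ± 0.24 (adjusted p = 0.0022).

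Some targets of PPARα that serve as markers of a fast were not called in this comparison. Of 23 measured genes on a list of targets, 1 rose and 3 fell. The median was -0.06 against 0.04 over all genes. The list does not hold Ech1, Decr1, Eci1 or Crat, oxidation genes that rose, so its counts do not cover all genes that PPARα runs. Cpt1a, the gate of fatty acids into mitochondria, read 8.84, 9.14, 8.48 and 8.76 in fed livers and 10.18, 9.24, 9.58 and 8.39 at P2 (0.54 ± 0.30, adjusted p = 0.24), with P2 4 below all fed livers. Fgf21, a fasting hormone of the liver, differed by -0.26 ± 0.43 (adjusted p = 0.73), Angptl4, an inhibitor of lipoprotein lipase, by -0.52 ± 0.36 (adjusted p = 0.36), and Acot1, an acyl-CoA thioesterase, by 0.42 ± 0.19 (adjusted p = 0.16). Ppara itself differed by -0.48 ± 0.29 (adjusted p = 0.3). A p above the threshold does not show that these genes were alike in the 2 groups. The called members of the list were Slc27a5, Fads2, Mgll and Plin2. Slc27a5, a fatty acid and bile acid CoA ligase, rose by 1.04 ± 0.30 (adjusted p = 0.079 without P2 4), and the others fell. Plin2, a coat protein of lipid droplets, read 10.16, 10.57, 10.42 and 10.30 in fed livers and 8.79, 8.64, 9.56 and 8.80 at P2 (-1.42 ± 0.22, adjusted p = 0.0013). Mgll, which splits monoglycerides, fell by 1.47 ± 0.34 (adjusted p = 0.012).

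Of 7 measured ketone body genes, 1 rose and 3 fell, and these 4 calls held without any single array. Bdh1, which makes 3-hydroxybutyrate in mitochondria, read 11.35, 11.11, 11.14 and 11.28 in fed livers and 9.67, 9.37, 10.47 and 9.86 at P2 (-1.38 ± 0.19, adjusted p = 0.00061). Bdh2, a cytosolic relative, rose from a mean of 5.75 to a mean of 6.85 (standard error of the change 0.18, adjusted p = 0.0015). The monocarboxylate carriers Slc16a1 (-0.96 ± 0.16) and Slc16a6 (-1.25 ± 0.26) fell. In triglyceride synthesis and storage, 2 of 23 genes rose and 4 fell. Gpam, the mitochondrial acyltransferase that starts triglyceride synthesis, fell by 1.55 ± 0.42 (adjusted p = 0.025, 0.081 without P2 4), and Gpat3, its counterpart in the endoplasmic reticulum, rose by 1.19 ± 0.30 (adjusted p = 0.018). Dgat1, which adds the last fatty acid, rose by 0.82 ± 0.19 (adjusted p = 0.012).

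Several enzymes of amino acid breakdown and of the urea cycle were higher. Of 56 measured breakdown genes, 16 rose and 4 fell (median 0.26). Of these calls, 13 held without any single array and 7 were lost without P2 2. Tdo2, which opens the ring of tryptophan, read 11.06, 10.34, 11.23 and 11.11 in fed livers and 12.12, 12.14, 12.08 and 12.37 at P2 (1.24 ± 0.16, adjusted p = 0.00033). Asrgl1, which hydrolyses asparagine, rose by 1.36 ± 0.24 (adjusted p = 0.0028). Kynu, further down the tryptophan route, fell by 1.27 ± 0.28 (adjusted p = 0.0091). Tat, tyrosine aminotransferase, differed by 0.03 ± 0.16 (adjusted p = 0.91). In the urea cycle list, 3 of 10 genes rose and none fell, and all 3 calls held without any single array. Asl, which releases arginine, read 10.70, 10.26, 10.64 and 10.59 in fed livers and 11.69, 11.88, 11.42 and 11.43 at P2 (1.06 ± 0.13, adjusted p = 0.00027). Arg1, which splits arginine into urea and ornithine, rose by 0.82 ± 0.11 (adjusted p = 0.00067), and Gls2, which frees ammonia from glutamine, by 0.56 ± 0.14. Cps1 and Ass1, at the start of the cycle, were named after their values were seen and differed by -0.13 ± 0.10 and 0.19 ± 0.10.

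Genes of taurine supply differed in opposite directions. Slc6a6, the taurine transporter of the cell membrane, read 9.93, 10.19, 10.33 and 10.33 in fed livers and 6.21, 7.30, 7.36 and 6.70 at P2. It fell by 3.30 ± 0.32 (9.86-fold, adjusted p = 4.7e-05), the largest fall among 29 amino acid transporters, of which 1 rose and 5 fell. Csad, which makes the precursor of taurine from cysteine sulfinate, fell by 1.65 ± 0.29 (adjusted p = 0.0024). Cdo1, the enzyme just before it, named after its value was seen, rose by 0.69 ± 0.10 (adjusted p = 0.00097). The transporter that rose was Slc16a10, a carrier of aromatic amino acids (1.26 ± 0.19, adjusted p = 0.001), and the glycine transporter Slc6a9 fell by 1.21 ± 0.26. Of 29 genes that respond to amino acid shortage, 3 rose and 3 fell. Trib3, a pseudokinase that binds AKT, rose by 1.47 ± 0.23 (adjusted p = 0.0012), and the stress gene Nupr1 by 1.43 ± 0.32 (adjusted p = 0.011). Mthfd2, a mitochondrial folate enzyme, fell by 1.45 ± 0.31. Asns, asparagine synthetase, differed by -0.43 ± 0.22 (adjusted p = 0.21).

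Several genes of the insulin and mTOR route were lower. Of 25 measured, 8 fell and 1 rose (Trib3), and 22 of the 25 had changes below 0, with a median of -0.53. Mtor, the growth-control kinase, read 7.63, 7.44, 7.43 and 7.78 in fed livers and 6.75, 6.03, 6.59 and 5.58 at P2 (-1.33 ± 0.23, adjusted p = 0.0026). Gsk3b fell by 1.21 ± 0.32, Tsc2 by 0.95 ± 0.19, Rptor, the partner of mTOR, by 0.69 ± 0.18, and the insulin receptor Insr by 0.66 ± 0.21. These are long genes, with a median length of 52.8 kb over the list, and 6 of the 9 calls were lost without fed 4, while 3 held without any single array. The adjusted p of Gsk3b was 0.081 without fed 4, that of Rptor 0.075 and that of Insr 0.15 without P2 4. Irs2 was not called (0.60 ± 0.27, adjusted p = 0.16). Inhbe, a liver-made activin subunit, read 9.65, 9.59, 9.38 and 10.04 in fed livers and 6.39, 5.37, 8.40 and 5.99 at P2 (-3.13 ± 0.45, adjusted p = 0.00083), with P2 3 closest to the fed level. Sgk1, a kinase under insulin and glucocorticoid control, fell by 2.13 ± 0.25 (adjusted p = 0.00016).

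Among 21 glucocorticoid-responsive genes, 6 rose and 3 fell. The falls were those of Sgk1 (-2.13 ± 0.25), Serpina6 (-1.35 ± 0.33) and the receptor gene Nr3c1. Tsc22d3, a classic target of the glucocorticoid receptor, rose by 1.62 ± 0.37 (adjusted p = 0.012), from 6.22 to 8.21 in fed livers to 8.75 to 9.44 at P2. Klf15 (0.86 ± 0.21) and Klf9 (0.92 ± 0.25) rose, and the receptor Nr3c1 fell by 0.99 ± 0.24 (adjusted p = 0.014). Each of these 3 calls was lost when a single array was left out, Klf15 without fed 4 (adjusted p = 0.057), Klf9 without P2 2 (0.085) and Nr3c1 without P2 4 (0.055). Of the 9 calls on the list, 4 held without any single array. Fkbp5 (0.61 ± 0.39), Per1 (0.59 ± 0.21) and Ddit4 (0.51 ± 0.18), further targets, were not called. In the thyroid hormone pathway, Serpina7, thyroxine-binding globulin, read 5.71, 4.68, 4.50 and 6.36 in fed livers and 7.29, 8.53, 7.64 and 9.44 at P2 (2.91 ± 0.50, adjusted p = 0.0022). Dio1, the deiodinase that activates thyroid hormone, differed by -0.13 ± 0.31 (adjusted p = 0.82).

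Nuclear genes of the mitochondrial machinery were higher as a large group. Of 65 measured subunits and assembly factors of the respiratory chain and ATP synthase, 34 rose and 1 fell (median 0.58). Of these calls, 27 held without any single array and 8 were lost without fed 4. By complex, 12 of 20 genes of complex I rose, 5 of 16 of complexes II and III, 6 of 13 of complex IV and 11 of 16 of ATP synthase. Cox4i1, a core regulatory subunit of complex IV, read 9.73, 8.66, 9.91 and 9.59 in fed livers and 10.83, 11.04, 10.83 and 11.46 at P2 (1.57 ± 0.24, adjusted p = 0.00097). Atp5mc2, which encodes the rotor ring of ATP synthase, rose by 1.72 ± 0.30, Ndufb8 of complex I by 1.30 ± 0.20 and Uqcrfs1, the Rieske protein of complex III, by 1.24 ± 0.28. The gene that fell, named after its value was seen, was Ndufs1, the largest subunit of complex I (-0.91 ± 0.23, adjusted p = 0.018, 0.058 without fed 4). Of 52 mitochondrial ribosomal proteins, 26 rose and none fell (median 0.49), with Mrpl13 (1.29 ± 0.31, adjusted p = 0.059 without P2 4) and Mrpl34 (1.23 ± 0.22) on top. Of these 26 calls, 15 held without any single array and 10 were lost without P2 4. Over this list the mean log2 signal was 6.62, 6.08, 6.67 and 6.60 in the fed livers and 6.79, 7.04, 7.01 and 7.12 at P2. Most of these genes are short, with median lengths of 7.64 kb for the respiratory list and 7.36 kb for the ribosomal list. With the trend against gene length taken out, 34 rose and 3 fell in the first list and 23 rose and 2 fell in the second. Without fed 2 and P2 4, and without P3 3, whose values also spread little, 28 rose and 3 fell in the first list. In the second, 15 rose and 1 fell.

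Antioxidant enzymes were higher in many cases. Of 40 measured, 17 rose and 3 fell (median 0.53). Among those that rose were the peroxiredoxins Prdx4 (1.18 ± 0.26, adjusted p = 0.01) and Prdx5 (1.11 ± 0.24, adjusted p = 0.0081), which reduce peroxides, and Gpx4 (0.93 ± 0.14, adjusted p = 0.0011), which reduces lipid peroxides. Sod1 and Sod2, the cytosolic and the mitochondrial superoxide dismutase, rose by 0.60 ± 0.14 and 0.78 ± 0.24. Gpx1, the main glutathione peroxidase, read 12.46, 12.27, 12.57 and 12.34 in fed livers and 12.64, 12.90, 13.08 and 13.24 at P2 (0.56 ± 0.15, adjusted p = 0.026, 0.086 without P2 4). The Sod2 call was lost without P2 4 too (adjusted p = 0.098). Cat, catalase, read 12.38, 12.14, 12.34 and 12.42 in fed livers and 12.19, 11.92, 12.15 and 11.51 at P2 (-0.38 ± 0.46, adjusted p = 0.62). Nfe2l2, which encodes the master regulator NRF2 and was named after its value was seen, fell by 0.76 ± 0.15 (adjusted p = 0.0055). Its targets Nqo1 (1.06 ± 0.52), Hmox1 (0.52 ± 0.41) and Gclc (-0.31 ± 0.26) were not called. Of the 17 rises and 3 falls, 13 held without any single array, and 7 were lost without P2 4. On the producing side, 2 of 16 oxidases that release hydrogen peroxide rose and 4 fell. Gulo, the last enzyme of vitamin C synthesis, read 12.04, 11.94, 11.89 and 11.80 in fed livers and 10.69, 10.50, 10.74 and 10.05 at P2 (-1.42 ± 0.29, adjusted p = 0.0067), and Xdh, xanthine dehydrogenase, fell by 1.22 ± 0.19.

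Protein synthesis and breakdown genes were higher in part. Of 22 cytosolic ribosomal proteins with a row of their own, out of 81 on the list, 7 rose and none fell. Rpl3 was at 8.87 or below in all fed livers and read 10.02, 10.56, 10.24 and 10.94 at P2 (1.91 ± 0.30, adjusted p = 0.0014). Ribosomal protein genes have many near-identical copies, and the array's probes may not separate them. Of 30 translation factors, 9 rose and 3 fell, with Eif3e highest (1.43 ± 0.21). Of 30 proteasome genes, 11 rose and 3 fell. The core subunits Psma6 (1.59 ± 0.28) and Psmb1 (1.34 ± 0.24) rose, and Psmd2, a subunit of the regulatory cap, fell by 1.03 ± 0.20. Over the 37 autophagy and lysosome genes, 6 rose and 4 fell (median 0.02), and 6 of these 10 calls held without any single array. Gabarapl1, a member of the Atg8 family that coats the growing autophagosome, read 7.54, 6.96, 8.01 and 7.64 in fed livers and 8.81, 8.95, 8.86 and 8.98 at P2 (1.37 ± 0.17). Its relatives were set beside it after their values were seen. Map1lc3a (0.84 ± 0.15), Map1lc3b (0.79 ± 0.19) and Gabarap (0.60 ± 0.13) rose. Gabarapl2 rose by 1.43 ± 0.34, but P2 1 (6.52) lay below fed 4 (6.82), and the call was lost without P2 4 (adjusted p = 0.055) and without fed 2, P2 4 and P3 3 (0.087). The protease Ctsl rose by 1.12 ± 0.17, and Sqstm1, the cargo receptor p62, fell by 0.86 ± 0.11 (adjusted p = 0.0003), as did Atg9a (-0.86 ± 0.21, adjusted p = 0.056 without P2 4).

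**Figure D2:**
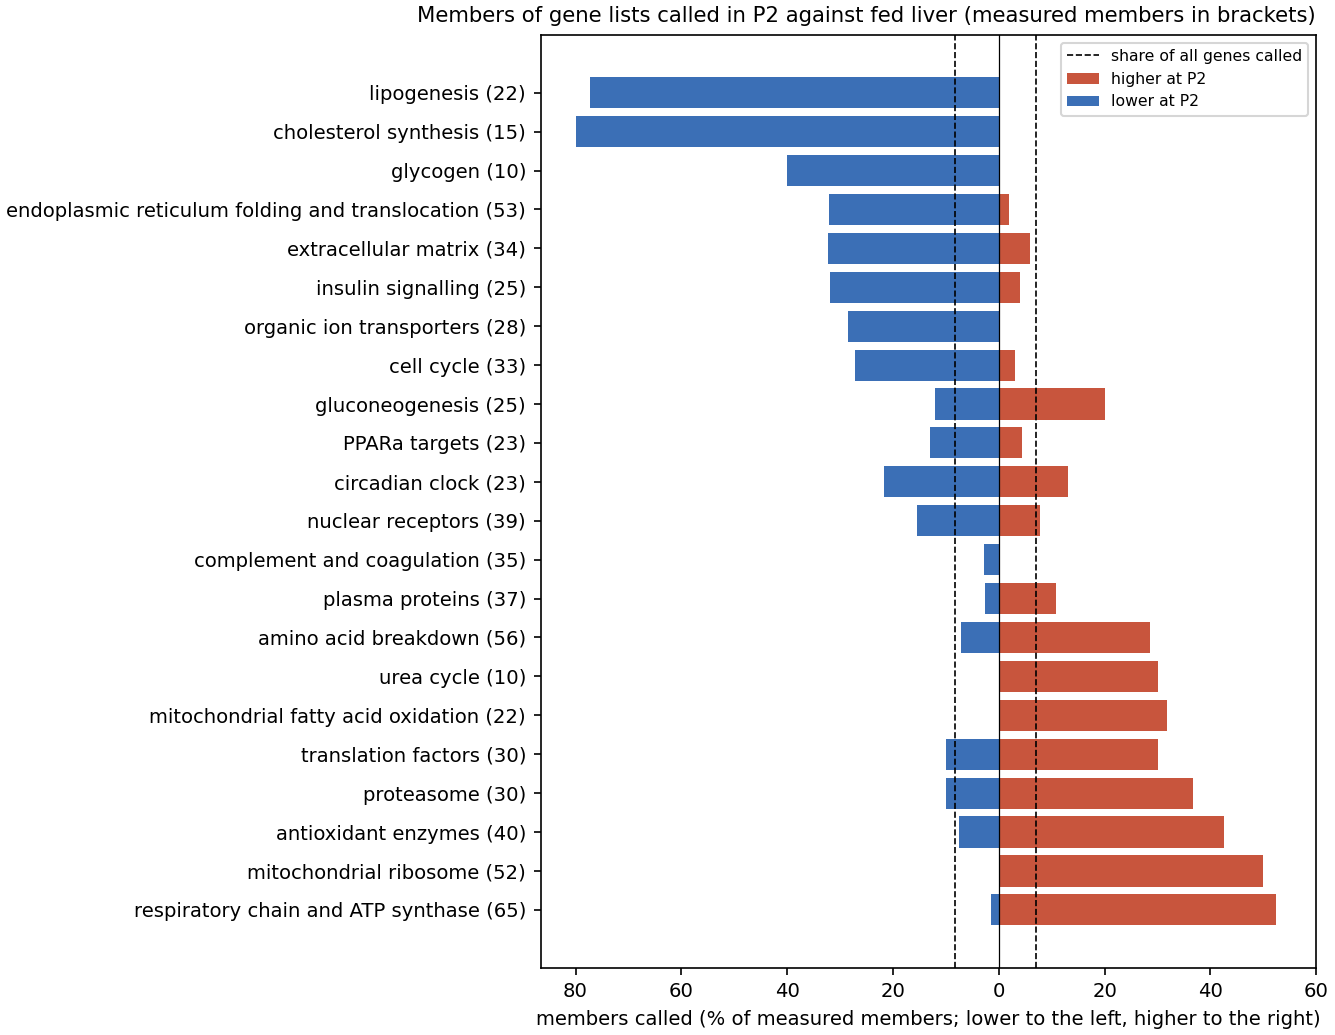
Share of the measured members of 22 gene lists called higher (red, right) and lower (blue, left) at P2, in percent on the horizontal axis, with the number measured in brackets. Dashed lines give the shares of all genes, 6.99% higher and 8.33% lower. Lipogenesis and cholesterol synthesis reach furthest left and the respiratory chain furthest right.

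Part of the secretory pathway was lower at P2. Of 53 genes of protein folding and translocation in the endoplasmic reticulum, 17 fell, 1 rose and 35 were not called (median -0.28). The mean log2 signal of the list was 9.38, 8.92, 9.21 and 9.38 in fed livers. At P2 it was 8.96, 8.91, 9.07 and 8.81, so that the groups overlapped. Uggt1, which checks the folding of glycoproteins, read 8.88, 8.45, 8.58 and 9.30 in fed livers and 7.39, 6.57, 7.05 and 6.43 at P2 (-1.94 ± 0.25, adjusted p = 0.00035). Hyou1, a chaperone, fell by 1.23 ± 0.19, the coat protein Sec31a by 1.32 ± 0.22 and the channel subunit Sec61a1 by 1.07 on the log2 scale. Ssr4, a small subunit of the translocon, was the gene that rose and was named after its value was seen (0.84 ± 0.22, 0.074 as adjusted p without P2 4). Plasma proteins differed little as a group. Of 37 measured, 4 rose and 1 fell, and of 35 complement and coagulation genes C6 alone fell (-1.59 ± 0.25, adjusted p = 0.0014) and none rose. Serpina6, the corticosteroid carrier of plasma, fell by 1.35 ± 0.33 (adjusted p = 0.016, 0.056 without P2 4). Orm1 (0.77 ± 0.16) and Lbp (0.95 ± 0.24), proteins of the acute phase, rose. Of 20 acute phase genes, 5 rose and none fell. Only 2 of these 5 calls held without any single array, and 3 were lost without P2 1, with Lbp at an adjusted p of 0.051.

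Drug and bile acid metabolism differed in single genes. Of 30 cytochrome P450 genes and their partners, 4 rose and 2 fell, and of 24 conjugating enzymes 5 rose and none fell. Cyp2j4 read 8.11, 7.42, 8.27 and 8.65 in fed livers and 9.97, 10.13, 9.76 and 9.69 at P2 (1.77 ± 0.21, adjusted p = 0.00018). Cyp2e1, which oxidises ethanol and acetone, rose by 0.79 ± 0.12 (adjusted p = 0.00094). Nnmt, which methylates nicotinamide, rose by 1.52 ± 0.21 (adjusted p = 0.00063). Cyp7a1, which starts the making of bile acids from cholesterol, read 11.19, 10.89, 10.79 and 10.07 in fed livers and 10.03, 9.35, 9.38 and 8.66 at P2 (-1.38 ± 0.40, adjusted p = 0.035, 0.12 without P2 4). Cyp2c11, the main P450 of male rat liver, differed by -0.56 ± 0.50 (adjusted p = 0.49). Members of P450 families resemble each other, and the probes may not separate all of them.

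Some membrane transporters of organic or inorganic ions were among the steepest falls. Of 28 measured genes on the list of organic ion transporters, 8 fell and none rose (median -0.34). The list also holds a phosphate transporter, Slc34a2. Slc34a2, a phosphate transporter, read 9.35, 9.03, 8.95 and 9.66 in fed livers and 5.12, 5.29, 7.67 and 5.02 at P2 (-3.47 ± 0.46, adjusted p = 0.00039). P2 3 stood well above the other P2 livers and still below all fed livers. Slc22a8, an organic anion carrier, went from 10.82, 10.38, 10.97 and 11.00 to 9.17, 8.44, 7.52 and 7.18 (-2.72 ± 0.34, adjusted p = 0.00028), and Slc13a4, a sulfate carrier outside the list, from 9.13, 8.80, 8.79 and 9.34 to 5.79, 5.89, 6.51 and 5.71 (-3.04 ± 0.18, adjusted p = 2.1e-07). Paqr9, a membrane protein of the progestin and adiponectin receptor family, read 10.60, 10.88, 10.12 and 10.34 in fed livers and 7.30, 6.59, 8.28 and 6.49 at P2 (-3.32 ± 0.34, adjusted p = 6.9e-05). P2 3 was the highest P2 liver for Inhbe, Slc34a2, Slc13a4 and Paqr9. Cxcl14, a chemokine, read 3.90, 4.64, 4.84 and 3.32 in fed livers and 7.04, 5.25, 7.55 and 9.11 at P2 (3.06 ± 0.72, adjusted p = 0.013). Its fed values lay around the array medians, so the size of its rise is uncertain.

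Cell cycle genes were partly lower at P2. Of 33 measured, 9 fell and 1 rose (median -0.21). Ccnd1, cyclin D1, read 8.83, 8.22, 8.41 and 8.59 in fed livers and 6.60, 6.13, 6.39 and 5.41 at P2 (-2.38 ± 0.26, adjusted p = 9.2e-05). Top2a, which untangles DNA in dividing cells, went from 3.20, 3.85, 4.50 and 4.39 to 2.60, 2.47, 2.60 and 2.57 (-1.43 ± 0.23, adjusted p = 0.0014), and Mki67, a marker of dividing cells, fell by 0.80 ± 0.14. The P2 livers were nearly level for Top2a and all lay below the lowest fed liver. The P2 values of Top2a and the fed and P2 values of Mki67 lay below the array medians (4.368 to 4.459). No detection calls were used, so these signals are not shown to be above background, and the sizes of both falls are uncertain. Of 23 clock genes, 3 rose and 5 fell, and 4 of the 8 calls were lost without fed 4, while 4 held without any single array. Tef, an output factor, rose by 1.23 ± 0.19 (adjusted p = 0.0012), while Npas2 (-1.20 ± 0.12, adjusted p = 6.7e-05), Clock (-1.14 ± 0.29, adjusted p = 0.073 without P2 4) and Bhlhe40 (-1.34 ± 0.28) of the core loops fell. Since times of sampling are not known here, time of day and fasting cannot be told apart for these genes.

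Several matrix genes and some markers of stellate cells, the liver cells that store vitamin A and make matrix, were lower. Of 34 extracellular matrix genes, 11 fell and 2 rose (median -0.57). Fn1, fibronectin, read 11.87, 11.83, 11.52 and 12.17 in fed livers and 11.01, 10.52, 10.66 and 9.95 at P2 (-1.31 ± 0.20, adjusted p = 0.0012). Lox, which crosslinks collagen, fell by 1.55 ± 0.42 (adjusted p = 0.074 without fed 1) and Col14a1 by 1.30 ± 0.27, while Dcn, decorin, rose by 1.36 ± 0.39 (adjusted p = 0.035, 0.095 without fed 1). Of 11 stellate cell markers, 4 fell and 1, Dcn, rose. By sign, called or not, 7 of the 11 had changes below 0 and 4 above 0. Of these 5 calls, 2 held without any single array and 3 were lost without P2 4. Dcn, Col1a2 and Col3a1 stand on both lists. Col1a2 (-0.71 ± 0.52, adjusted p = 0.38) and Col3a1 (-1.32 ± 0.50, adjusted p = 0.094) were not called. Pdgfrb, a growth factor receptor of these cells, read 7.56, 7.85, 7.86 and 8.08 in fed livers and 6.28, 6.69, 6.33 and 5.87 at P2 (-1.54 ± 0.23, adjusted p = 0.00088). Lrat, which stores vitamin A, fell by 1.06 ± 0.22 and Reln by 0.92 ± 0.22 (adjusted p = 0.058 without fed 4). The mean log2 signal of the 11 markers was 7.33, 7.07, 7.45 and 7.77 in fed livers and 7.07, 7.24, 6.97 and 6.74 at P2, so that the groups overlapped. The part of these cells in the matrix result was not tested. Only 4 of the 13 matrix calls held without any single array, and 8 were lost without P2 4. None of the measured markers of Kupffer cells (12), endothelial cells (6), bile duct cells (6), lymphocytes (9), red cells (3), adipocytes (7), muscle (7) and pancreas (7) was called, and of 7 neutrophil markers 1 fell. Neutrophil markers averaged 3.38 to 3.72 on the 8 arrays. Pancreas markers averaged 4.03 to 4.24 in fed and 4.38 to 4.58 in P2 livers, so that the groups were apart. All 7 had changes above 0 (0.06 to 0.62), at signals near the array medians, and the source of this shift was not tested.

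Changes at P2 went with gene length. Across the 13204 genes with a known length, taken as the span of the gene in the RefSeq annotation of GRCr8, the Spearman correlation between length and change was -0.29. Over the 8246 genes brighter than the median row it was -0.38. This correlation is across genes, which share the same 8 arrays, and describes these arrays only. The brighter genes were split by length into 5 equal bins. In the bin of shortest genes (median 4.04 kb), 19.7% rose and 4.24% fell, and the median change was 0.21. In the bin of longest genes (median 112 kb), 2.67% rose and 22.2% fell, and the median change was -0.35. By array, the median deviation of the longest genes from each gene's own mean was 0.22, -0.05, 0.13 and 0.45 in fed 1 to 4 and -0.08, -0.16, -0.01 and -0.43 in P2 1 to 4. Fed 4 and P2 4 were the extremes, and fed 2 fell among the P2 values. For the shortest genes the values were -0.05, -0.26, -0.01 and -0.10 in fed livers and 0.03, 0.17, 0.11 and 0.12 at P2, so that the groups were apart. The trend was not traced to a source here. For the counts below, a trend fitted to all rows of known length was taken out. In the bin of longest genes, the median change was -0.08 over all genes against -0.35 over the brighter ones. Part of the trend may thus remain in the brighter genes, so the counts do not give its full part in the calls.

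With a smooth trend against length removed from every array, 8.69% of genes were higher and 10.4% lower, and 1852 of the 2023 called genes were still called. These were 796 that rose and 1056 that fell, and 674 further genes were called. The counts of gene groups moved to different degrees. Lipogenesis had 18 falls, cholesterol synthesis 13, the endoplasmic reticulum list 19 and the matrix list 12. In the insulin and mTOR list 8 genes still fell, and mitochondrial fatty acid oxidation went from 7 rises to 10. The citric acid cycle list went from 6 falls to 10, the proteasome and the aminoacyl tRNA synthetase lists from 3 falls to 6 each, and the peroxisomal list from 4 rises to 7. The iron and heme list went from 3 falls to 6 and phospholipid metabolism from 2 rises to 6. Single genes near the threshold moved. Gpx1 was no longer called (0.41, adjusted p = 0.065), nor was Atf4, the factor behind the amino acid response (0.39, adjusted p = 0.085, against 0.53 ± 0.16 before), whose call was also lost without fed 1 (adjusted p = 0.12). Pdk4, on the other hand, passed the test as lower (-0.79, adjusted p = 0.04).

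**Figure D3:**
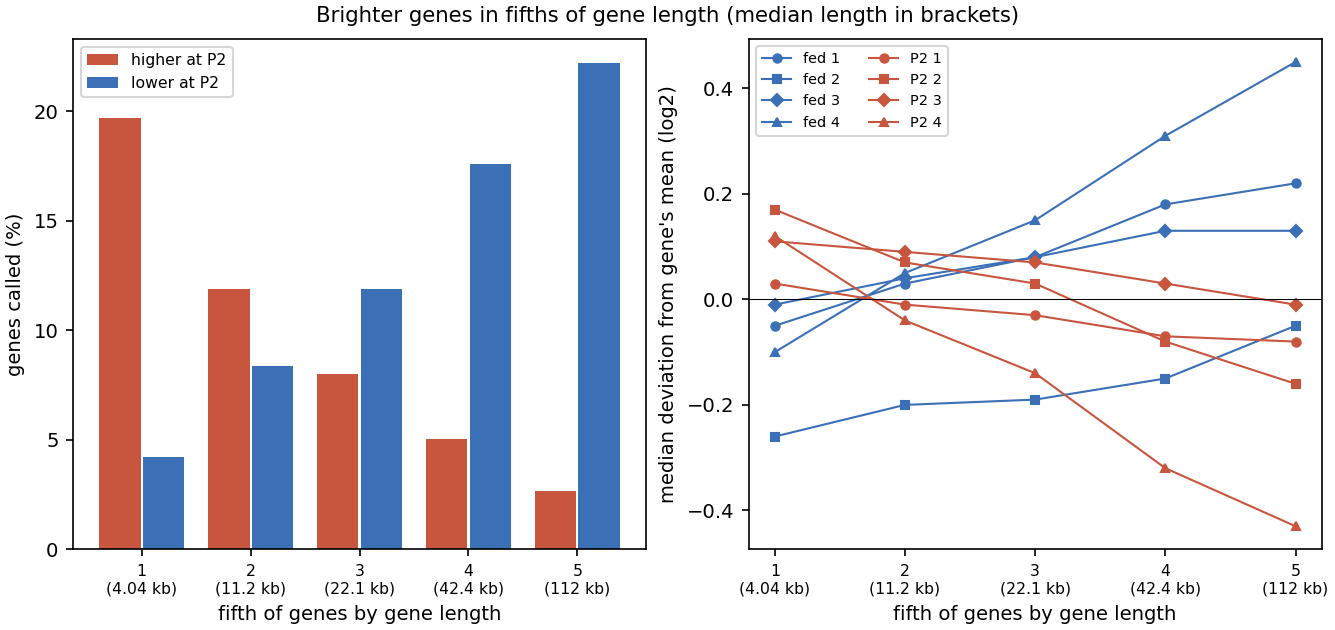
Brighter genes in 5 bins of gene length, from short (left) to long (right), with the median length in kb in brackets. The left panel gives the percentage of genes called higher (red) and lower (blue) at P2, and the right panel the median log2 deviation from each gene's mean for every fed (blue) and P2 (red) array. The share called lower climbs from 4.24% to 22.2%, and fed 4 and P2 4 lie furthest apart among the longest genes.

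Single arrays weighed on the number of calls and on the balance of rises and falls. Leaving out fed 2 gave 692 genes higher and 1413 lower, and leaving out fed 4 gave 576 and 535. With all 8 arrays it was 923 and 1100. Without P2 4, 1010 of the 2023 called genes were still called, and without fed 4, 1088. Without P2 2 it was 1251, without fed 1 it was 1284, and without fed 3 it was 1631. The smallest losses followed fed 2 (1674 kept), P2 1 (1654) and P2 3 (1791). Leaving out fed 2 brought 431 further genes to the threshold and leaving out P2 3 brought 355. No called gene changed sign when any of the 8 arrays was left out. The called genes were picked on these same arrays, so this is a weak check. In all 8 fits 926 genes (45.8%) stayed called, 429 higher and 497 lower. Among them were Scd, Elovl6, Pklr, Acly, Igfbp1, Ech1, Decr1, Slc6a6, Asl, Tdo2 and Cox4i1.

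**Figure D4:**
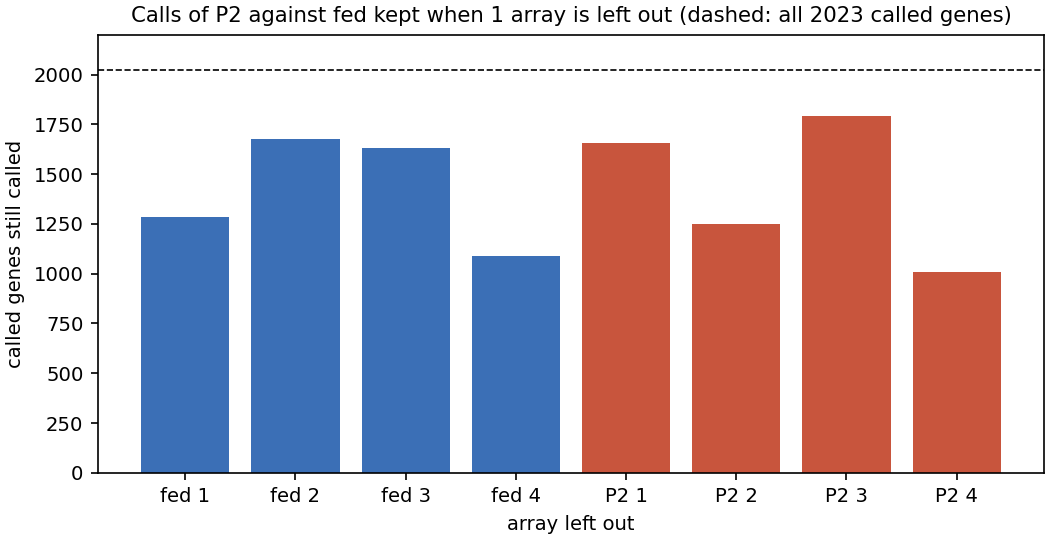
Number of the 2023 called genes (dashed line) that were still called when the array on the horizontal axis was left out, fed in blue and P2 in red. The bars range from 1010 without P2 4 to 1791 without P2 3.

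The P3 group shows which P2 differences were larger or smaller at the later stage. P2 and P3 share the fed control, so the test set P3 directly against P2. In that test 17.5% of all genes were higher and 10.0% lower in P3. Of the 923 genes higher at P2, 96 were higher still in P3, 470 did not differ by the test and 357 were lower in P3 than in P2. Of those 357, 310 no longer differed from fed by the test and 41 were below fed. Of the 1100 genes lower at P2, 120 were lower still in P3, 569 did not differ by the test and 411 were higher in P3 than in P2. Of those 411, 343 no longer differed from fed by the test and 61 were above it. The P2 arrays enter both the calls and this test, with opposite sign. Noise in them therefore adds to the counts of genes that moved back toward fed in P3. These counts were not checked against gene length or single arrays.

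Among the rises that were lower at P3 than at P2 were the genes for unsaturated fatty acids. Decr1 stood at a mean of 8.38 in fed, 10.22 in P2 and 7.70 in P3 livers (P3 minus P2 -2.51 ± 0.27, adjusted p = 1.2e-05). Eci1 was 1.73 above fed at P2 and -0.33 from it at P3 (P3 minus P2 -2.06 ± 0.29, adjusted p = 8.6e-05). Serpina7 was 2.91 above fed at P2 and -1.44 from it at P3, and P3 minus P2 was -4.35 ± 0.50 (adjusted p = 1.7e-05). Acsm5 and Prdx4, set out after their values were seen, crossed the fed level. Acsm5 was 2.30 above fed at P2 and -1.87 from it at P3 (adjusted p = 0.025 against fed), and Prdx4 was 1.18 above and then -1.41 (adjusted p = 0.001 against fed). Rises that grew were those of Igfbp1 (3.13 at P2 and 5.97 at P3, P3 minus P2 2.84 ± 0.22, adjusted p = 5.1e-07), Sds (2.01 and 4.22, adjusted p = 0.0073), Trib3 (1.47 and 2.75, adjusted p = 0.0007) and Nupr1 (1.43 and 3.22, adjusted p = 0.00075). The adjusted p-values of these 3 belong to P3 minus P2.

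Falls that deepened took in the lipogenic genes Pklr (-3.53 at P2 and -6.04 at P3, P3 minus P2 -2.51 ± 0.33, adjusted p = 5.5e-05) and Fads1 (-3.46 and -6.19, adjusted p = 3.4e-05). Acly showed no difference between P3 and P2 by the test (-0.10 ± 0.27). For Scd (0.89 ± 0.42) and Elovl6 (-0.11 ± 0.28), the P2 signals already lay near or below the array medians, so a further fall could have gone unseen. Paqr9, Inhbe, Stac3, Slc13a4 and Slc22a8 were lower at P3 than at P2. Stac3, known in muscle for coupling excitation to contraction, fell by 3.06 at P2 and fell by a further 2.56 ± 0.48 (adjusted p = 0.00098). Falls that were smaller at P3, with no difference from fed by the test, were those of the receptors Egfr (-1.64 at P2 and -0.29 at P3, adjusted p = 0.0094) and Fgfr2 (means of 7.21 in fed, 5.71 in P2 and 6.71 in P3 livers, adjusted p = 0.015), of the palmitoyltransferase gene Zdhhc23 (-2.05 and -0.44, adjusted p = 0.00036) and of Mthfd2 (-1.45 and 0.06, adjusted p = 0.0021), each p for P3 minus P2. Cyp7a1 and Slc16a6 were likewise set out after their values were seen. Cyp7a1 crossed from -1.38 at P2 to 1.39 above fed at P3 (P3 minus P2 2.77 ± 0.40, adjusted p = 0.00013), and Slc16a6 from -1.25 to 0.88 (2.13 ± 0.26, adjusted p = 2.8e-05). Slc6a6 stood -3.30 from fed at P2 and -1.31 at P3 (1.99 ± 0.32, adjusted p = 0.00034).

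Several genes that were not called in P2 against fed differed between P3 and P2. The difference P3 minus P2 was 1.24 ± 0.35 for Pck1 (adjusted p = 0.018), 1.82 ± 0.29 for G6pc1 (adjusted p = 0.00029), 1.34 ± 0.30 for Cpt1a (adjusted p = 0.0036) and 1.24 ± 0.16 for Tat (adjusted p = 4.8e-05). For Dio1 it was -4.87 ± 0.31 (adjusted p = 6.7e-08) and for Cyp2c11 -5.74 ± 0.50 (adjusted p = 1.8e-06). Car3, a carbonic anhydrase abundant in male rat liver, fell by 0.84 ± 0.19 at P2 (adjusted p = 0.011) and was lower at P3 by a further 7.10 ± 0.19 (adjusted p = 4.9e-12). Ddit4, an inhibitor of mTOR complex 1, was 0.51 above fed at P2 and 4.37 at P3 (P3 minus P2 3.86 ± 0.18, adjusted p = 1.8e-09).

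**Figure D5:**
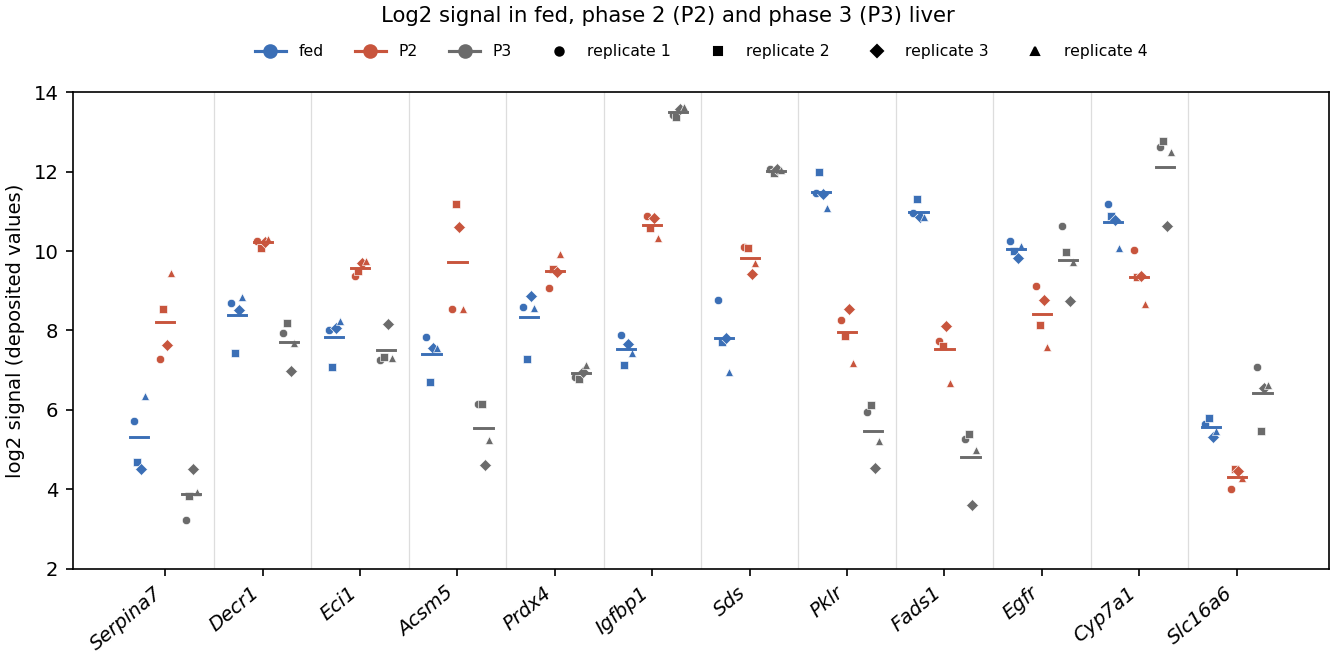
Log2 signal (vertical axis) of 12 named genes on each fed (blue), P2 (red) and P3 (grey) array, with symbols by replicate number and a bar for the mean of 4. Serpina7, Decr1, Eci1, Acsm5 and Prdx4 are highest in P2 among these 3 groups, Igfbp1 and Sds climb from fed to P2 to P3, and Pklr and Fads1 descend.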

How the data were processed

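RNA of 16 rat livers, 4 per group, was measured on exon arrays, 1 animal per array. The authors deposited log2 signals per transcript cluster; the log2 scale was read from the values, and GCOS 1.4 and Expression Console 1.1 are named per the submitters' processing notes. The sources used here do not give the background correction, the summarisation or the genome build. All 18885 rows in the annotated range of identifiers were tested as deposited with limma 3.58.1 in R 4.3.3. Of these, 13327 have 1 gene symbol, 620 several and 4938 none, and 533 rows outside the range were left out. The fit gave group means over all 16 arrays (12 residual degrees of freedom), and p-values were adjusted by the Benjamini-Hochberg method over all rows. A gene with several rows is represented by its brightest row.

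Genes to be named were fixed by rule: among genes with non-overlapping groups, the 15 largest rises and the 15 largest falls, then at most 6 called members from each gene list, a list of key genes, and genes that differed between P3 and P2. The members and lists were chosen with earlier results of these data known. Gene lengths and promoter windows come from RefSeq (GRCr8). The length trend was a lowess curve (span 0.5) per array. No pairing of fed and P2 arrays by replicate number was seen, and none was used in the main fit. The p-values set the difference between group means against the spread within groups over all 16 arrays, P3 and re-fed rats included. The small number of arrays limits the precision.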

Additional observations from a re-analysis of the deposited data

Results flagged for a closer look

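One kind of result that stood out is an array far from the other 3 of its group, by Dixon's ratio at a confidence level of 0.95, among the genes named here. Of 374 groups of 4 examined, 22 (5.88%) had such an array, and chance gives about 1 in 20. Fed 2 was the lowest of the fed livers in 12 of the 22 cases. They were Ctsl at 9.92 (others 10.63 to 10.75), Cyp2c11 at 11.88, Cyp2e1 at 11.87, Dgat1 at 6.27, Etfa at 9.55, Idh2 at 8.46, Lrat at 7.53, Map1lc3b at 9.01, Mrpl13 at 4.75 (others 6.33 to 6.65), Mrpl34 at 6.17, Sod2 at 7.89 (others 9.17 to 9.33) and Stat5b at 8.02. It was the highest for Insig1 at 12.35 (others 11.19 to 11.37). Fed 1 was low for Mki67 at 3.04, and fed 4 was low for Scd at 11.65 and high for Npc1 at 8.28. Among the P2 livers, P2 2 was low for Bdh2 at 6.52, and P2 3 was high for Slc34a2 at 7.67 (others 5.02 to 5.29) and Stat5a at 6.62. P2 4 was low for Igf1 at 10.90 and Pck1 at 11.10 and high for Etfa at 11.36. All values are log2 signals.

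Another kind is a change against fed that differed between P2 and P3, tested as P3 minus P2 with limma. Of 34 genes whose P3 values are given, 31 differed by this test, and most of the 34 were picked by a rule that used it. Lower at P3 were Car3 (-7.10), Cyp2c11 (-5.74), Dio1 (-4.87), Serpina7 (-4.35), Acsm5 (-4.17), Slc22a8 (-3.50), Inhbe (-2.84), Fads1 (-2.72), Prdx4 (-2.59), Stac3 (-2.56), Decr1 (-2.51), Pklr (-2.51), Eci1 (-2.06), Paqr9 (-1.51) and Slc13a4 (-1.21). Higher at P3 were Ddit4 (3.86), Igfbp1 (2.84), Cyp7a1 (2.77), Sds (2.21), Slc16a6 (2.13), Slc6a6 (1.99), G6pc1 (1.82), Nupr1 (1.80), Zdhhc23 (1.62), Mthfd2 (1.51), Egfr (1.36), Cpt1a (1.34), Trib3 (1.28), Pck1 (1.24), Tat (1.24) and Fgfr2 (1.00).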

How the results depend on the processing

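Over all 18885 rows, 1158 were higher and 1242 lower at P2. Leaving out single arrays gave 608 to 1135 higher and 592 to 1548 lower rows, with the fewest without P2 4 (608 and 592) and fed 4 (681 and 596), then P2 2 (731 and 790) and fed 1 (793 and 755). Array weights gave 1894 lower rows, a fit on the fed and P2 arrays alone 638 higher rows, and an adjusted p below 0.01 gave 381 higher and 438 lower rows. The share of calls that were higher was 48.2%, against 36.4% without fed 2, 36.4% with fed 2, P2 4 and P3 3 left out (845 higher and 1478 lower), 40.1% with arrays centred on their medians and 55.9% with array spread as a covariate. No called change of a named gene turned its sign under the settings run. Sign changes occurred for values that were not called: Tat at -0.09 (quantile normalization), -0.01 (centred arrays), -0.04 (length trend out, also in brighter rows), -0.26 (signal and length trends out), -0.02 (without fed 2), -0.03 (without P2 1) and -0.04 (without P2 3); Dio1 at 0.11 (spread covariate); Cps1 at 0.02 (length trend out) and 0.21 (the same in brighter rows); Pck1 at -0.06 (without fed 2) and -0.07 (signal and length trends out); Fgf21 at 0.08 (without fed 4); Lpin1 at -0.12 (without P2 1) and -0.00 (without P2 2); and Alb at -0.12 (signal and length trends out). For P3 minus P2, Elovl6 stood at 0.03 (spread covariate) and 0.02 (without P2 2), and Acly at 0.04 (without P2 1) and 0.00 (without P2 3). Over the fits that left out 1 array, Tat ranged up to 0.17, Pck1 up to 0.38, Lpin1 up to 0.57, Fgf21 down to -0.49, and for P3 minus P2, Acly down to -0.34 and Elovl6 down to -0.19. The cause was not tested. Same-numbered fed and P2 arrays deviated with correlations of -0.00, -0.03, -0.06 and -0.20, so no pairing by number was seen. Such correlations cannot show whether same-numbered arrays shared a batch. The replicate block gave 955 higher and 1009 lower rows. The settings with both trends out, with brighter rows of known length and with the 533 rows left out of the tests added were chosen after seeing the data. The alternative with protein length was not run, since no protein table was used here. Of 34 P3 minus P2 results, 29 to 31 were called under the settings run. With 4 arrays a group, small changes are out of reach: the smallest called change was 0.27.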
